A study of Mus musculus with 6 samples.

Results

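Cholesterol synthesis was followed through 7 enzyme genes, Hmgcs1, Idi1, Fdft1, Sqle, Lss, Cyp51 and Dhcr7, in mouse hippocampus after traumatic brain injury (TBI). The genes were taken by symbol from a list of sterol genes controlled by the transcription factor SREBP2, and the rule that chose them uses no measured value, although earlier results of these data were known when it was written. All 7 were found among the 52550 genes listed for each library, and all 7 were among the 18795 genes that passed the filter on low counts. Hippocampal RNA of 3 sham mice gave the libraries Sham1, Sham2 and Sham3, and that of 3 TBI mice TBI1, TBI2 and TBI3. All mice were young adult males of the breed labelled C57BL / 6 (C57B6/J in the methods) and were sampled 24 h after surgery. TBI mice received a controlled cortical impact of moderate severity over the right parietal cortex, and sham mice underwent the same anaesthesia and craniotomy without the impact. The study describes whole hippocampus, exposed on both sides of the brain, and its methods do not say whether both sides went into a library, which may therefore hold tissue far from the impact.

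The brain makes nearly all of its own cholesterol, because lipoproteins of the blood do not cross the blood-brain barrier. The route starts from acetyl-CoA, passes through mevalonate and farnesyl diphosphate to squalene, closes squalene into the sterol lanosterol, and then trims lanosterol to cholesterol. SREBP2 is a membrane protein that is released as a transcription factor when membrane sterol is low, and it raises the genes of the whole route together with the low density lipoprotein receptor. In the adult brain, astrocytes are a major source of cholesterol for neurons, and oligodendrocytes use large amounts for myelin.

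In these libraries, the levels of all 7 genes were lower on average in TBI, by 0.10 to 0.35 on the log2 scale, and none of the differences passed the test. A gene was called where its fold change exceeded 1.5 in either direction, with p under 0.05 before and under 0.1 after adjustment. None of the 7 genes was called by edgeR (quasi-likelihood test, 0% of all genes called). DESeq2 with its defaults called none of the 7 either, and 0.221% of the 20786 genes that it gave an adjusted p. None of the 7 genes had an unadjusted p under 0.05 in edgeR. Of all genes tested, 4.29% had one (2.13% lower and 2.16% higher in TBI). None of the 7 had one in DESeq2 with its defaults, where 4.11% of the genes given an unadjusted p did. The median log2 fold change of the 7 genes was -0.22, and that of all genes tested was 0.0091. A negative log2 fold change was found for 48.6% of all genes tested.

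The sums of the counts ran from 31630936 to 41771872 per library, and the scaling factors from 0.970 to 1.02. Several libraries stood apart in marker genes, Sham2 and TBI1 most widely. In Sham2 each of the 10 oligodendrocyte markers had its lowest level, and their summed level was 3080 CPM (counts scaled by library size), against 9077 and 10856 CPM in the other sham libraries and 9767 to 11138 CPM in TBI. The 7 choroid plexus markers summed to 51.0 CPM in Sham2, 2030 and 2077 CPM in the other sham libraries, and 239.8 to 2363 CPM in TBI. In TBI1 the 7 markers of striatum summed to 1997 CPM, against 41.9 to 68.5 CPM in the other 5 libraries, and each of the 6 markers of hippocampal neurons had its lowest level, with a sum of 119 CPM against 283 to 687 CPM. In TBI3 the 6 thalamus markers summed to 587 CPM, against 85.5 to 382 CPM elsewhere, and in TBI2 the 5 blood markers summed to 601 CPM, against 117 to 416 CPM. Between the groups, all 6 markers of hippocampal neurons were lower on average in TBI (median log2 fold change -1.11). Higher on average were all 10 of oligodendrocytes (0.38), all 8 of microglia (0.31), all 6 of thalamus (0.76), all 5 of blood (0.38) and all 7 of striatum (4.21). Single libraries weigh heavily in these averages. The blood sums were 192, 416 and 126 CPM in Sham1 to Sham3 and 117, 601 and 204 CPM in TBI1 to TBI3. The thalamus sums were 173, 85.5 and 381 CPM in sham and 112, 382 and 587 CPM in TBI. Those of striatum were 41.9, 66.6 and 61.7 CPM in sham and 1997, 68.5 and 54.7 CPM in TBI. The microglia markers summed to 472, 568 and 427 CPM in Sham1 to Sham3 and 841, 569 and 422 CPM in TBI1 to TBI3, so TBI1 was high and TBI3 was below every sham library. No marker was called by edgeR. An unadjusted p under 0.05 in edgeR was found for 4 striatum markers and 1 each of the astrocyte and endothelial lists, all higher in TBI. The neuron list had 1, lower in TBI. Of all genes tested, 4.29% had such a p. No marker of these lists was at 0 in any library. The 8 astrocyte markers summed to 3399 CPM in Sham2 and 4295 to 5362 CPM elsewhere, but only 3 of the 8 were lowest in Sham2 and 2 were highest there. The part of these markers in the values of the 7 genes was not tested. Fewer cells of a type and less RNA per cell cannot be told apart in such bulk tissue. The changes of the 7 genes are therefore also given without the libraries they lean on.

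**Figure D1:**
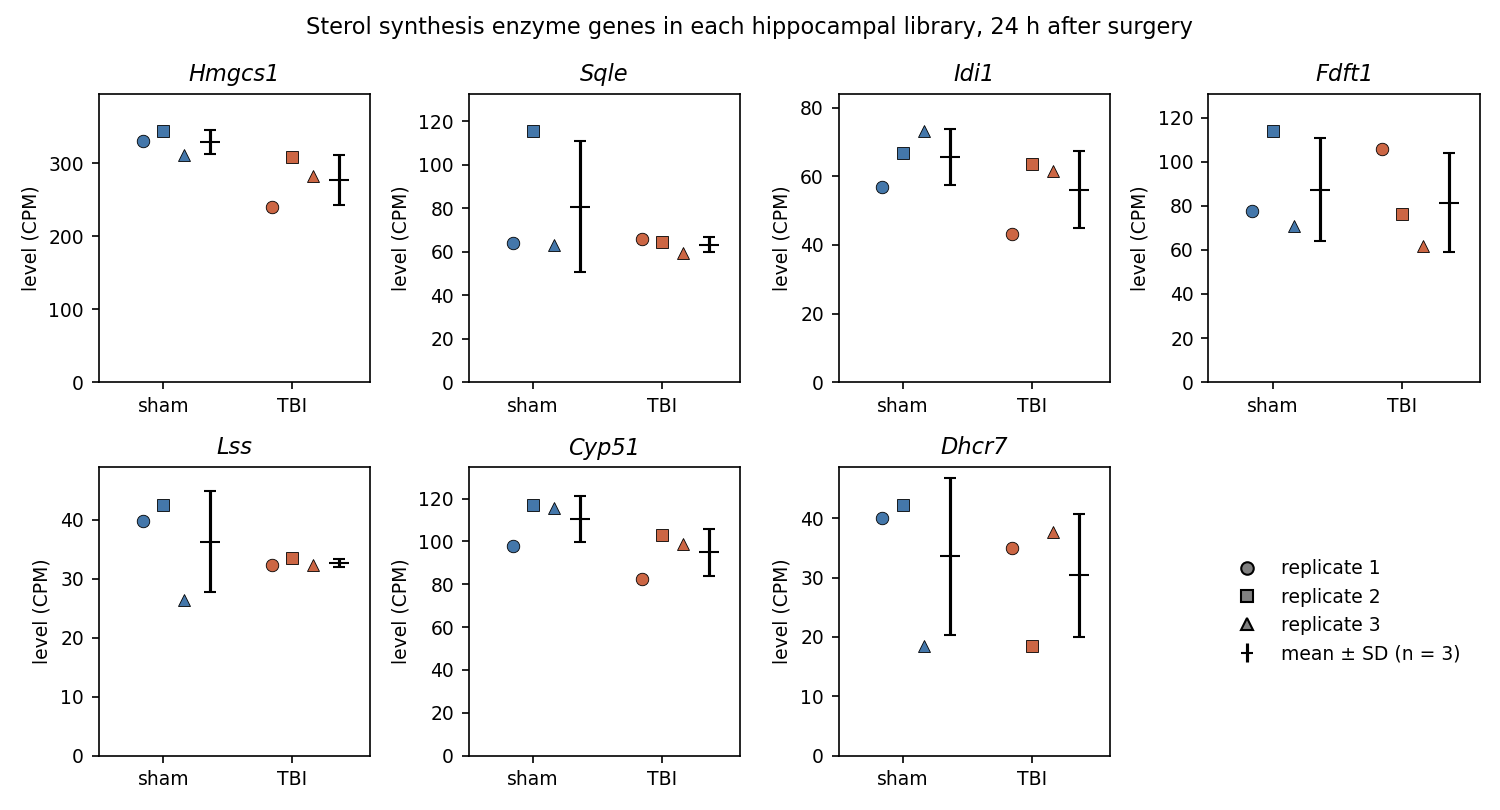
Level of each of the 7 enzyme genes in CPM (y axis, from 0) in the 3 sham and 3 TBI libraries (x axis), with the mean and SD of each group in black. The groups are separate for Hmgcs1, where the highest TBI library is at 308.8 CPM and the lowest sham library at 311.8 CPM, and they overlap for the other 6 genes.

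Hmgcs1 (ENSMUSG00000093930.2, chromosome 13 of GRCm38, 119690379 to 119708260, plus strand) encodes the cytosolic HMG-CoA synthase, which joins acetyl units early in the route. Its level was 331 CPM in Sham1, 344 CPM in Sham2 and 312 CPM in Sham3. It was 241 CPM in TBI1, 308.8 CPM in TBI2 and 283 CPM in TBI3. All 3 TBI libraries lay below all 3 sham libraries, with only a narrow gap between Sham3 and TBI2, and 5.45% of all genes tested were separate in this direction (10.2% in either direction). The separation held under each of the 3 other scalings of the libraries. Group means (± SD, n = 3) were 329 ± 16.2 CPM for sham and 277.5 ± 34.4 CPM after TBI. In edgeR the log2 fold change was -0.25 (standard error 0.126, 95% interval -0.55 to 0.055), and p was 0.0944 before and 0.982 after adjustment. The change was -0.15 without TBI1, -0.21 without Sham2 and -0.12 without both. Of the 4594 exonic bases of Hmgcs1, 557 are shared with Gm48342, an annotated gene on the opposite strand. The level of Gm48342 was 40.3, 45.0 and 36.3 CPM in Sham1 to Sham3 and 28.7, 37.8 and 32.0 CPM in TBI1 to TBI3. The strandedness of the libraries is not stated, so reads on the shared bases cannot be assigned to either gene.

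Idi1 (ENSMUSG00000058258.14, chromosome 13, 8885501 to 8892451, plus strand) encodes the isopentenyl diphosphate isomerase, which supplies the starter unit of the isoprenoid chain. Its level was 57.0 CPM in Sham1, 66.9 CPM in Sham2 and 73.2 CPM in Sham3, and 43.3 CPM in TBI1, 63.6 CPM in TBI2 and 61.5 CPM in TBI3. TBI1 was the lowest library, and TBI2 and TBI3 lay within the sham range. Group means (± SD, n = 3) were 65.7 ± 8.14 CPM for sham and 56.2 ± 11.2 CPM after TBI. The edgeR log2 fold change of -0.23 had a 95% interval from -0.67 to 0.21 (adjusted p 0.982). Without TBI1 the change was -0.070. The paralog Idi2 was close to absent, with 5 counts in Sham2, 9 counts in TBI1 and 0 in the other 4 libraries.

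Fdft1 (ENSMUSG00000021273.10, chromosome 14, 63145150 to 63179578, minus strand) encodes squalene synthase, the first enzyme committed to sterols. Its level was 77.5 CPM in Sham1, 114 CPM in Sham2 and 70.7 CPM in Sham3, and 105.9 CPM in TBI1, 76.4 CPM in TBI2 and 61.9 CPM in TBI3. Sham2 and TBI1 were high and the other 4 libraries low, so the pattern did not follow the groups. Sham libraries averaged 87.3 ± 23.2 CPM and TBI libraries 81.4 ± 22.4 CPM (SD, n = 3). The difference in edgeR was -0.10 on the log2 scale, with a 95% interval from -0.72 to 0.52 (adjusted p 0.985). The sign depended on single libraries, with 0.14 without Sham2, 0.059 without TBI3 and -0.34 without TBI1. Fdft1 shares 774 of its 4227 exonic bases (18.3%) with Ctsb, which encodes the lysosomal protease cathepsin B on the opposite strand. The level of Ctsb was 598, 766 and 574 CPM in Sham1 to Sham3 and 852, 649.9 and 635 CPM in TBI1 to TBI3, so Ctsb too was highest in TBI1 and Sham2. How much of the Fdft1 level came from Ctsb reads was not tested.

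Sqle (ENSMUSG00000022351.14, chromosome 15, 59315077 to 59331192, plus strand) encodes squalene epoxidase, a rate-limiting enzyme of the later part of the route. Its level was 63.9 CPM in Sham1, 115 CPM in Sham2 and 62.9 CPM in Sham3, and 65.8 CPM in TBI1, 64.6 CPM in TBI2 and 59.4 CPM in TBI3. Sham2 was 1.82 times the mean of the other sham libraries, and the other 5 libraries lay close together. Sham libraries averaged 80.7 ± 30.0 CPM and TBI libraries 63.3 ± 3.38 CPM (SD, n = 3). The edgeR log2 fold change of -0.35 was the lowest of the 7 genes, with a 95% interval from -0.95 to 0.25 (adjusted p 0.982). Without Sham2 it was -0.0037.

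Lss (ENSMUSG00000033105.12, chromosome 10, 76531588 to 76557138, plus strand) encodes lanosterol synthase, which folds the squalene epoxide into the first sterol. Its level was 39.9 CPM in Sham1, 42.6 CPM in Sham2 and 26.5 CPM in Sham3, and 32.4 CPM in TBI1, 33.5 CPM in TBI2 and 32.3 CPM in TBI3. The TBI libraries were nearly equal, at 32.7 ± 0.693 CPM, and lay inside the wider sham range, where the mean was 36.3 ± 8.63 CPM (SD, n = 3 for both). The edgeR log2 fold change of -0.15 had a 95% interval from -0.62 to 0.32 (adjusted p 0.982). It was -0.34 without Sham3, -0.071 without Sham1 and -0.021 without Sham2.

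Cyp51 (ENSMUSG00000001467.5, chromosome 5, 4081145 to 4104746, minus strand) encodes the cytochrome P450 that demethylates lanosterol. Its level was 98.1 CPM in Sham1, 117 CPM in Sham2 and 116 CPM in Sham3, and 82.6 CPM in TBI1, 103 CPM in TBI2 and 98.8 CPM in TBI3. TBI2 and TBI3 lay just above Sham1, and TBI1 was the lowest library. Group means (± SD, n = 3) were 110.4 ± 10.7 CPM for sham and 94.9 ± 10.9 CPM after TBI. The edgeR log2 fold change of -0.22 had a 95% interval from -0.54 to 0.11 (adjusted p 0.982). The change was -0.13 without TBI1 and -0.083 without both TBI1 and Sham2. Cyp51 shares 166 of its 4415 exonic bases with Akap9 on the opposite strand, whose level was 174.6 CPM in TBI1 and 72.4 to 87.5 CPM in the other libraries.

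Dhcr7 (ENSMUSG00000058454.15, chromosome 7, 143823145 to 143848410, plus strand) encodes the reductase that closes a branch of the route by making cholesterol from its dehydro precursor. Its level was 40.0 CPM in Sham1, 42.3 CPM in Sham2 and 18.4 CPM in Sham3, and 35.0 CPM in TBI1, 18.5 CPM in TBI2 and 37.6 CPM in TBI3. Sham3 and TBI2 were low and alike, and the other 4 libraries high, so this pattern did not follow the groups either. Sham libraries averaged 33.6 ± 13.2 CPM and TBI libraries 30.4 ± 10.3 CPM (SD, n = 3). The edgeR log2 fold change of -0.14 had the widest 95% interval of the 7 genes, from -1.07 to 0.79 (adjusted p 0.985). It was 0.11 without TBI2, 0.056 without Sham2, 0.012 without Sham1 and -0.44 without Sham3.

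**Figure D2:**
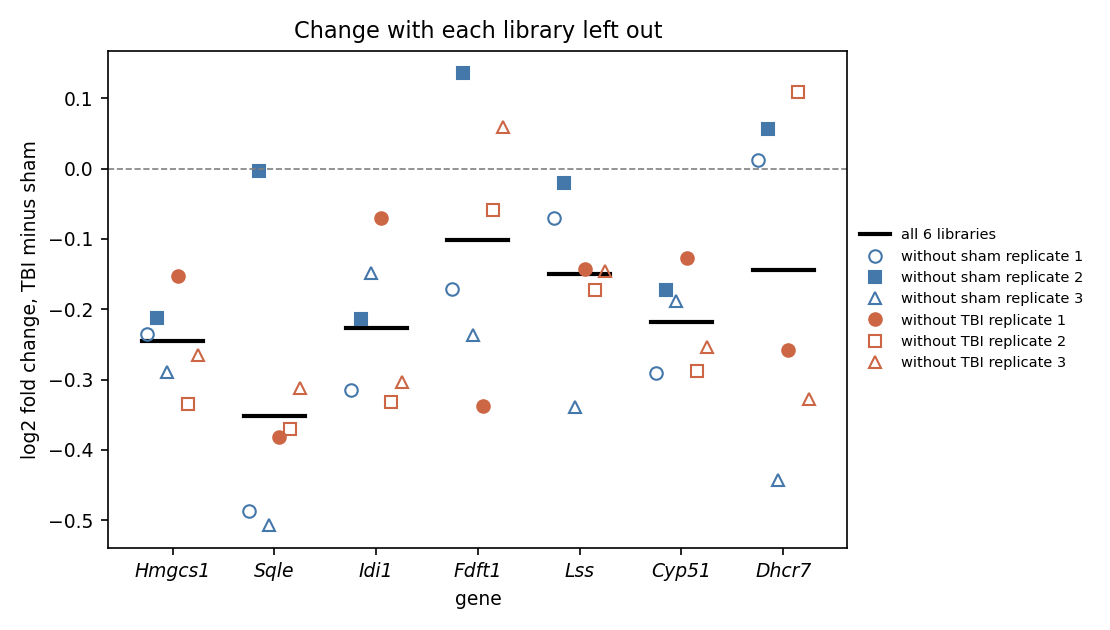
Log2 fold change of TBI against sham (y axis) for each of the 7 genes (x axis), with all 6 libraries (black bar) and with each library left out (symbols). Without Sham2 (filled blue squares) the values of Sqle and Lss lie at -0.0037 and -0.021 and those of Fdft1 and Dhcr7 above 0, whereas Hmgcs1, Idi1 and Cyp51 lie lower, at -0.21, -0.21 and -0.17.

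The 7 genes did not share a single pattern over the libraries. Sham2 was the highest library for 6 of the 7 genes, with Idi1 as the exception. TBI1 was the lowest library for Hmgcs1, Idi1 and Cyp51, TBI3 for Sqle and Fdft1, and Sham3 for Lss and Dhcr7. With the sham mean set to 0, the 7 genes averaged, on the log2 scale, -0.19, -0.21 and -0.17 in TBI1 to TBI3, and -0.037, 0.27 and -0.23 in Sham1 to Sham3. The spread was wider among the sham mice, and Sham3 lay below every TBI library on this mean. The summed level of the 7 genes, to which Hmgcs1 adds most, was 707, 842 and 679 CPM in Sham1 to Sham3 and 606, 669 and 635 CPM in TBI1 to TBI3, without overlap, so the place of Sham3 depends on how the genes are weighted. The median log2 fold change of the 7 genes was -0.021 without Sham2 and -0.058 without Sham2 and TBI1 together, and none of the 7 reached an unadjusted p under 0.05 in either fit. The shares of all genes tested that did so were 3.39% without Sham2, 4.52% without Sham3, 4.33% without TBI1 and 5.02% without Sham2 and TBI1 together.

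The 6 libraries differ in group and depth, so correlations over them are given only as a description. Pearson's r of the log2 levels was above 0 in 14 of the 21 pairs of the 7 genes, with a median of 0.40. The highest values joined Idi1 with Cyp51 (0.95), Hmgcs1 with Cyp51 (0.83) and Hmgcs1 with Idi1 (0.77), the genes that were lowest in TBI1. Sqle and Fdft1, both high in Sham2, had 0.75, and Lss and Dhcr7, both low in Sham3, had 0.71. The lowest value was -0.42, between Idi1 and Dhcr7.

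**Figure D3:**
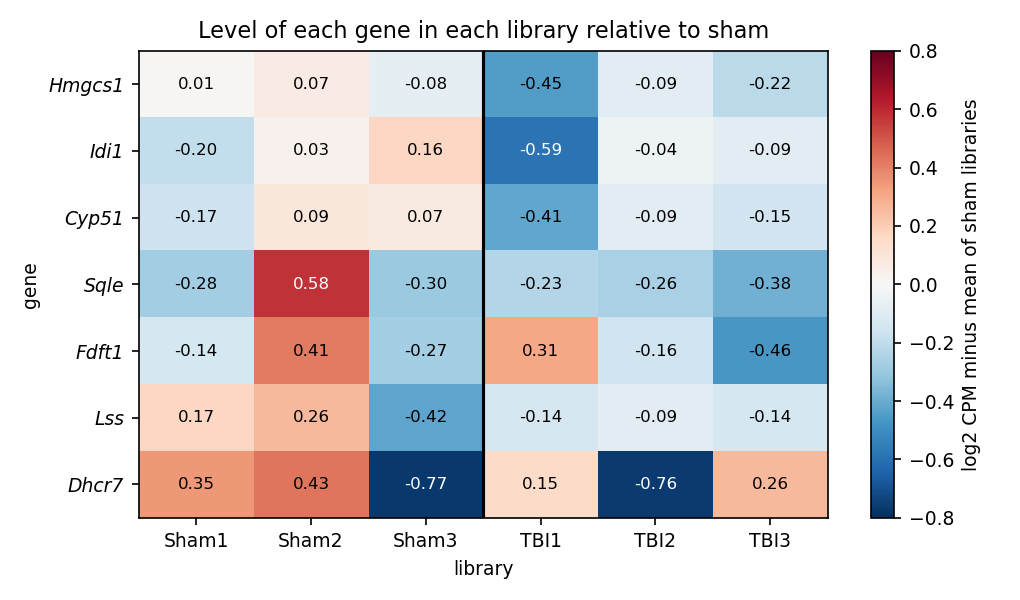
Level of each of the 7 genes (rows) in each library (columns) as log2 CPM relative to the sham mean, from blue (lower) to red (higher). Hmgcs1, Idi1 and Cyp51 share their lowest value in TBI1 (-0.45, -0.59 and -0.41), Sqle, Dhcr7 and Fdft1 are high in Sham2 (0.58, 0.43 and 0.41), and Dhcr7 is lowest in Sham3 and TBI2 (-0.77 and -0.76).

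The promoters of the genes that followed each other are shown for the letters that SREBP2 and its partner factor NF-Y are known to read. The sequences are RefSeq windows on GRCm38.p6, on the strand of the gene, cut before the first annotated start of the gene. Matches to the sterol response element (TCACNCCAC), to a looser form of it (TCACNNCA, which includes every match of the first) and to the CCAAT box (CCAAT, or ATTGG on the other strand) are in capitals. These letters were chosen after the windows had been read.
Hmgcs1, chr13:119690101-119690350, plus strand: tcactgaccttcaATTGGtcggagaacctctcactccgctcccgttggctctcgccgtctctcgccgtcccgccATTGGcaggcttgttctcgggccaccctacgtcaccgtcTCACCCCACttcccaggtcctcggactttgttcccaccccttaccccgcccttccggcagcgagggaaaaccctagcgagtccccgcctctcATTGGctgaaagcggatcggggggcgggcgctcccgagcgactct
Idi1, chr13:8885356-8885500, plus strand: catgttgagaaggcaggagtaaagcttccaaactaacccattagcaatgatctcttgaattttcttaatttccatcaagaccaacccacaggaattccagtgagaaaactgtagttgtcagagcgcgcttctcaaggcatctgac
Cyp51, chr5:4104747-4104947, minus strand: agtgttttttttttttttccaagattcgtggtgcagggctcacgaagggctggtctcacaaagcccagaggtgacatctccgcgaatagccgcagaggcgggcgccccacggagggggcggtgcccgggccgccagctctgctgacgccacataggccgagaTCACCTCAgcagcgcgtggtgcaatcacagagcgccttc

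In full windows of 300 bases, searched on both strands, TCACNCCAC was found in 1.24% of 32851 mouse promoters and, among the 7 windows of the 5 genes with a window (Hmgcs1, Idi1, Lss, Cyp51 and Dhcr7), only in that of Hmgcs1. The looser TCACNNCA was found in 13.8% of all promoters and in 4 of the 7 windows, those of Hmgcs1 and Cyp51 and 2 of the 3 of Dhcr7. CCAAT was found in 37.4% of all promoters and in 5 of the 7 windows, at least 1 for each of the 5 genes. The CCAAT matches of Idi1 and Cyp51 lie nearer the RefSeq start, outside the stretches printed above. A match describes letters and is no measurement of binding.

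Per kilobase of annotated exons, the order of the sham levels was Hmgcs1, Cyp51, Fdft1, Idi1, Sqle, Dhcr7 and Lss. Hmgcs1 stood at 71.6 ± 3.52 CPM per kilobase and Cyp51, next in order, at 24.997 ± 2.42 CPM per kilobase (SD, n = 3 mice). Fdft1 followed at 20.7 ± 5.49, Idi1 at 18.7 ± 2.32 and Sqle at 14.6 ± 5.42 CPM per kilobase, and the sham libraries of neighbours in the order from Cyp51 to Sqle overlapped. Dhcr7 at 5.77 ± 2.27 and Lss at 3.37 ± 0.800 CPM per kilobase were lower than Sqle in every sham library. The sham ranges of Dhcr7 and Lss overlapped, although Dhcr7 was above Lss within each of the 6 libraries. In TBI the same scale gave 60.4 ± 7.49 for Hmgcs1, 21.5 ± 2.46 for Cyp51 and 3.03 ± 0.0642 CPM per kilobase for Lss. The value of Lss rests on 10787 exonic bases over 8 annotated transcripts, the longest sum of the 7 genes.

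Of the other 15 genes of sterol synthesis, 10 were lower and 5 higher in TBI, and their median log2 fold change was -0.074. With each library left out in turn, 8 to 14 of the 15 were lower, with the highest median without Sham2 (-0.031) and the lowest without TBI3 (-0.13). Without Sham2 and TBI1 together 6 were lower (median 0.015). At an unadjusted p under 0.05 were Fdps and Hsd17b7 without Sham3 (4.52% of all genes tested in that fit) and Mvd without TBI3 (2.88%), all lower in TBI. None was called, and none reached an unadjusted p under 0.05 in edgeR or in DESeq2 with its defaults. In DESeq2 on the genes that passed edgeR's filter Mvd did, as did 5.74% of all genes. Mvd, the decarboxylase at the end of the mevalonate steps, had the smallest p of the list. Its level was 27.3, 34.8 and 27.2 CPM in sham and 18.9, 22.1 and 25.9 CPM in TBI, and the edgeR log2 fold change was -0.42 (95% interval -0.85 to 0.018), with p 0.0575 before and 0.982 after adjustment. For Mvd it ran from -0.29 without Sham2 to -0.54 without TBI3 (unadjusted p 0.0309 in edgeR), and was -0.18 without Sham2 and TBI1. Lbr, a nuclear envelope protein with sterol reductase activity, had the smallest p among the higher genes, with a log2 fold change of 0.11 (adjusted p 0.983) that was 0.19 without Sham2 and -0.011 without TBI3. Of all 22 sterol synthesis genes, 17 were lower in TBI. The groups were separate for 4 of the 22, Hmgcs1, Mvd, Hsd17b7 and Sc5d, all lower in TBI, where 5.45% of all genes tested were separate in that direction. This number ran from 2 to 5 over the scalings of the libraries, with Hmgcs1 and Hsd17b7 in each.

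**Figure D4:**
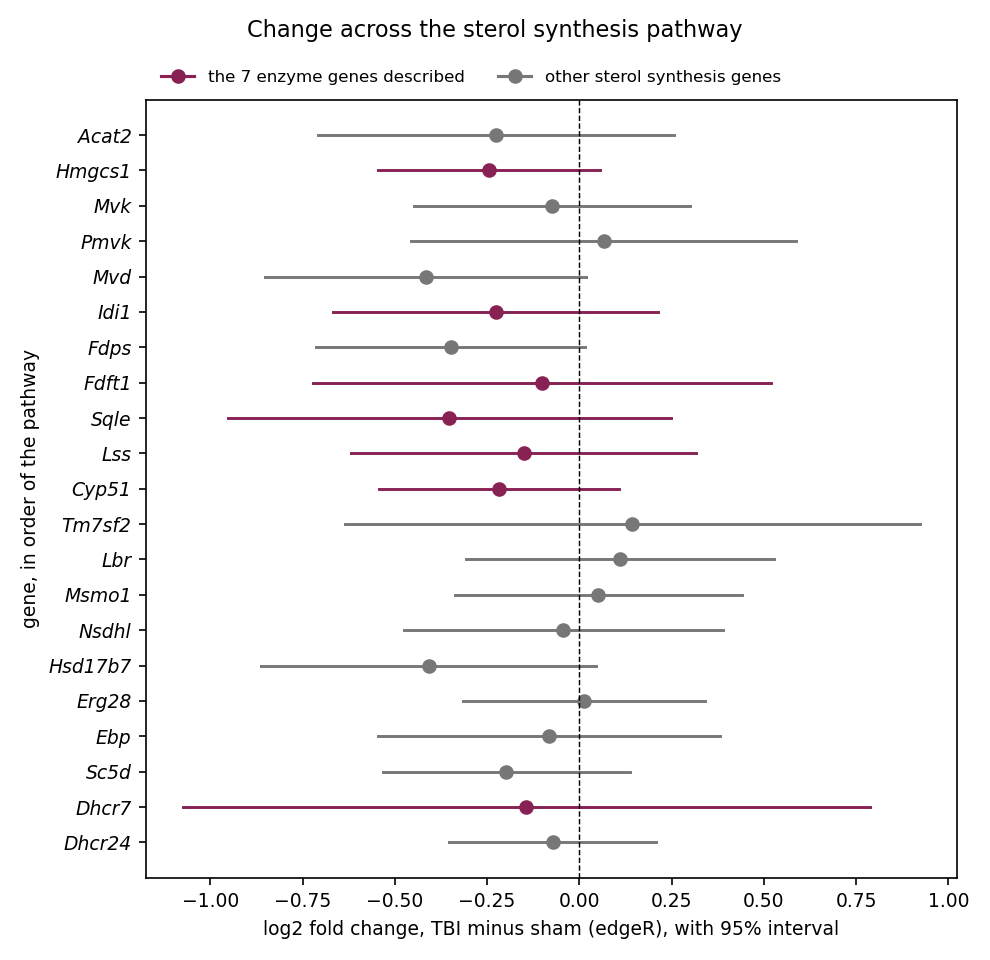
Log2 fold change of TBI against sham from edgeR (x axis), with its 95% interval, for 21 sterol synthesis genes in an order of the pathway from top to bottom (y axis). All 21 intervals include 0, and 16 of the 21 points lie to the left of it.

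Of the 12 genes that process or regulate SREBP, 5 were lower and 7 higher, with a median change of 0.0063 on the log2 scale. With each library left out, this median ran from -0.058 without TBI1 to 0.029 without Sham1. Without Sham3, TBI1 or TBI2, 7 of the 12 were lower and 5 higher. Srebf2, which encodes SREBP2, was at 245, 252 and 211 CPM in sham and 268, 227 and 193 CPM in TBI, and the groups overlapped. For Srebf2 the edgeR log2 fold change was -0.042 (standard error 0.152, adjusted p 0.991), and it was 0.0065 without Sham2 and 0.063 without TBI3. Insig1, a sterol sensor of the endoplasmic reticulum and itself a target of SREBP2, was at 104.6, 104.9 and 84.7 CPM in sham and 74.2, 93.3 and 122 CPM in TBI. The change of Insig1 was -0.025 (adjusted p 0.995), and it was 0.13 without TBI1 and 0.18 without TBI1 and Sham2. Nfyb, a subunit of NF-Y, was the only gene of the 6 pathway lists at an unadjusted p under 0.05, where 4.29% of all genes were. Nfyb was below that value in DESeq2 too, with its defaults (4.11% of the genes given a p) and on the genes that passed edgeR's filter (5.74%). It was at 60.2, 81.1 and 57.1 CPM in sham and 51.7, 50.9 and 41.3 CPM in TBI, without overlap. The fold change in edgeR was -0.46 on the log2 scale (standard error 0.177), with p 0.0359 before and 0.982 after adjustment. Without Sham2, the highest sham library of Nfyb, it was -0.29 (unadjusted p 0.0993 in edgeR), and the unadjusted p was also over 0.05 without TBI2 or TBI3. Srebf1, which encodes the relative SREBP1 that acts mainly on fatty acid genes, had the smallest p among the higher genes of this list, with 0.28 (adjusted p 0.982). The change of Srebf1 was 0.086 without Sham2 and 0.50 without Sham1 (unadjusted p 0.0432 in edgeR). In the fit without Sham1, 2.49% of all genes tested had an unadjusted p under 0.05.

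None of the genes around the route was called by edgeR or DESeq2. Uptake and transport had 6 of 11 genes lower and a median log2 fold change of -0.0053. In that list the smallest p values belonged to Mylip, a ligase that marks lipoprotein receptors for breakdown, with -0.34 (from -0.50 without TBI2 to -0.17 without Sham1), and Npc2, which carries cholesterol out of the lysosome, with 0.27 (edgeR adjusted p 0.982 for both). The levels of Npc2 were 100.2, 77.5 and 104.7 CPM in sham and 112, 107 and 120.5 CPM in TBI, without overlap, and 4.77% of all genes tested were higher in TBI without overlap. The change of Npc2 was 0.14 without Sham2. Efflux, esterification and turnover had 11 of 12 genes higher and a median of 0.21, and 0 of the 12 reached an unadjusted p under 0.05 in edgeR or, among the 11 with a p, in DESeq2. Abca1, the exporter that loads cholesterol onto apolipoproteins, had the smallest p among them, with 0.32 (95% interval -0.13 to 0.76, adjusted p 0.982), and Ch25h, a cholesterol hydroxylase, was the only lower one, with -0.63 (adjusted p 0.984). Ch25h was at 0.272, 5.36 and 0.521 CPM in Sham1 to Sham3 and 1.86, 1.90 and 0.225 CPM in TBI1 to TBI3, and its change was 1.74 without Sham2. The change of Abca1 was 0.12 without TBI1. Of the 12 genes, 9 were higher without Sham2, 8 without TBI1 and 7 without TBI3 (median 0.071). Abca7 reached an unadjusted p under 0.05 without TBI1 (4.33% of all genes tested in that fit). The isoprenoid branch after farnesyl diphosphate had a median of 0.050 over 11 genes (-0.0051 without TBI3 and 0.13 without TBI1). Its genes of smallest p in each direction were Pggt1b at 0.24 and Pdss1 at -0.100 (0.012 without Sham2 and -0.21 without Sham1). Pggt1b was at 12.9, 13.1 and 14.8 CPM in sham and 15.7, 15.3 and 17.1 CPM in TBI, without overlap, as were 4.77% of all genes tested in that direction. Fntb of that branch reached an unadjusted p under 0.05 without TBI2 (5.82% of all genes tested in that fit). Fatty acid synthesis had a median of 0.062 over 10 genes, with Scd2 at 0.27 (0.050 without Sham2 and 0.44 without Sham1) and Acaca at -0.073 (-0.12 without TBI3 and -0.039 without TBI1). Without Sham2 the median of this list was -0.058 and that of the uptake genes 0.14.

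Among 12523 genes outside these lists, the 5 whose log2 levels over the 6 libraries were most like the standardised mean of the 7 enzyme genes were Pak4, Nebl, Aff2, Frmd6 and Gm26530, with Pearson's r from 0.992 to 0.998. The mean that they follow was 1.18 in Sham2, 0.17 in Sham1 and -0.62 to -0.20 in the other 4 libraries, so this likeness rests largely on Sham2. Pak4 was at 14.9, 20.5 and 12.7 CPM in sham and 11.3, 13.0 and 12.7 CPM in TBI, and its edgeR log2 fold change was -0.38 (adjusted p 0.982), -0.17 without Sham2 and -0.53 without Sham3. The changes of Nebl, Aff2, Frmd6 and Gm26530 were -0.15, -0.32, -0.12 and -0.34 (edgeR adjusted p 0.982 for each), and without Sham2 they were -0.077, -0.16, -0.061 and -0.19. Their direction is not independent of how they were chosen.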

How the data were processed

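RNA-seq of hippocampus from 3 sham and 3 TBI mice was used, with 1 library per mouse and groups taken from the labels. Per the study's methods and the submitters' processing notes, the authors used FastQC for quality control, HISAT2 for alignment to GRCm38 and StringTie for quantification. Versions of these 3 tools, the annotation release and how StringTie output became counts are not given in the sources used here. The authors deposited whole-number estimated counts for each gene, which are not normalized. Low values pile up at multiples of 4 (the value 4 occurred 5109 times, the value 3 2325 times), so a count is not a read. Identifiers were matched to GENCODE vM21 symbols for 52403 of 52550 genes. 

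In R 4.3.3, counts were filtered with filterByExpr (edgeR 4.0.16), scaled by TMM and tested over 18795 genes in edgeR (quasi-likelihood test, p-values adjusted by Benjamini-Hochberg). The thresholds were those of the study, which used DESeq2 (run here at version 1.42.0 as an alternative). Simulated counts with 200 genes changed by far more than the enzyme genes were also passed through the edgeR test. The outcome is not reported here, and it cannot show whether changes as small as those of the enzyme genes would be found. The F statistic and the fold change gave each standard error. Log2 levels used a prior count of 2. Library sums of 31630936 to 41771872 gave each enzyme gene at least 586 counts in every library. How much of the spread comes from the counts and how much from the mice was not tested.

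The members, lists, motifs and alternatives were chosen with earlier results of these data known. Genes named are the 7 enzyme genes, Srebf2, Insig1, Idi2, the gene of smallest p in each direction of each list, and the 5 genes most like the mean of the enzyme genes. Genes named for sharing exons, for separate groups or for a stand-out library were added after their values were seen. A gene of the sterol synthesis list that the rule also names is counted with its list but not reported here. Alternatives were DESeq2, library totals, DESeq2 size factors, upper quartiles, other filters and thresholds, each library left out, the replicate number as a block, counts divided by 4 and robust dispersions. Leaving out Sham2 and TBI1 together was added after seeing the data.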

Additional observations from a re-analysis of the deposited data

How the results depend on the processing

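No alternative called any of the 7 enzyme genes or brought one to an unadjusted p under 0.05. The number of genes called over all genes was 0 with edgeR, 46 with DESeq2's defaults, 43 with DESeq2 on the filterByExpr genes and 3 without Sham2 and TBI1 together, and it was 0 to 1 with each library left out, where the 1 was found without TBI1. The median log2 fold change of the enzyme genes ran from -0.29 without Sham3 to -0.021 without Sham2. Of the 71 genes of the pathway lists, 1 had an unadjusted p under 0.05 in edgeR and 2 in DESeq2 on the filterByExpr genes (4.29% and 5.74% of all genes). With a library left out, the number was 0 without Sham2 (3.39% of all genes tested in that fit) and 3 without Sham3 (4.52%). It was 2 without Sham1 (2.49%) or TBI1 (4.33%), and 1 without TBI2 (5.82%) or TBI3 (2.88%). With each library left out, the log2 fold change ran from -0.34 to 0.14 for Fdft1, from -0.44 to 0.11 for Dhcr7, from -0.17 to 0.063 for Srebf2 and from -0.23 to 0.13 for Insig1. Insig1 was also at 0.18 without Sham2 and TBI1 together. The cause was not tested. Hmgcs1, Sqle, Idi1, Lss and Cyp51 were lower in TBI under each of the 17 alternatives, many of which refit the same libraries. The smallest of these changes was -0.0037 for Sqle, without Sham2. For Lss, Idi1, Cyp51 and Hmgcs1 the smallest were -0.013, -0.057, -0.083 and -0.12, without Sham2 and TBI1 together. Labels number the mice 1 to 3 in both groups, but the mice differ. The deviations of same-numbered libraries correlated at -0.10, -0.065 and 0.15, and those of other pairs of libraries at -0.18 to 0.21. Deviations from a mean of 3 mice depend on each other, so these values cannot decide whether same-numbered mice were handled together. With the replicate number as a block, 0 genes were called, the median of the enzyme genes was -0.22, and no direction changed. With 3 mice a group, the lower ends of the 95% intervals of the 7 genes lie between -0.54 (Cyp51) and -1.07 (Dhcr7) on the log2 scale, and an exact permutation test of a single gene cannot give a p below 0.1.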

Other observations

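Sham2 was the lowest library for 6 of the 10 fatty acid synthesis genes, for 0 of the 7 cholesterol enzyme genes and for 1 of the other 15 sterol synthesis genes (Tm7sf2), and the difference between these counts was not tested. Acly, which makes cytosolic acetyl-CoA, was not low there, with 239 CPM in Sham2 against 177 and 191 CPM in the other sham libraries. Scd1, a desaturase of fatty acid synthesis, was at 383, 142 and 356 CPM in Sham1 to Sham3 and at 342 to 439 CPM in TBI. Fads2, which desaturates polyunsaturated fatty acids, was at 177, 70.6 and 157 CPM in Sham1 to Sham3 and at 95.02 to 160.3 CPM in TBI. The same library had the lowest levels of all 10 oligodendrocyte markers, and the part of these markers in the fatty acid and sterol values was not tested. Lrp8, a receptor for reelin and apolipoprotein E, had the opposite pattern, with 111 CPM in Sham2 and 33.7 to 56.6 CPM in the other 5 libraries. These genes were named after their values were seen.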
